A study of Mus musculus with 7 samples.

Results

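Neuregulins and their ErbB receptors were followed here as 8 genes, selected from the count table by name: the ligands Nrg1, Nrg2, Nrg3 and Nrg4 and the receptors Egfr, Erbb2, Erbb3 and Erbb4. All 8 of the 8 names were found among 54532 genes, and all 8 passed the filter on low counts. The libraries were made from total RNA of untreated epithelium from the mouse cochlea, the coiled hearing organ of the inner ear, at embryonic day 16. Brg1 knockout libraries (n = 4) were set against libraries labelled Control (n = 3). Brg1 is the product of Smarca4, an ATPase of the BAF chromatin remodelling complex, and the study's title puts the question of its need in forming this epithelium. The sources used here do not give the Cre driver, the alleles, the genotype of the controls beyond that label or the embryos pooled in a library.

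Neuregulins are EGF-like growth factors, and many of their forms are made as membrane proteins that are cut or presented at the surface of axons. ErbB3 and ErbB4 bind them directly. ErbB2 has no known ligand of its own and acts as the partner of the other receptors, while the kinase of ErbB3 is impaired, so that ErbB3 signals mainly through ErbB2. EGFR is the receptor of EGF, TGF-alpha and related ligands rather than of neuregulins. In the peripheral nervous system axonal neuregulin 1 acts on ErbB2 and ErbB3 of Schwann cells, and in the inner ear ErbB receptors are also made by epithelial supporting cells next to the neurons that innervate the organ.

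Smarca4 was at 228 to 281 CPM (counts scaled to library size by TMM) in the 4 Brg1 knockout libraries, against 356 to 376 CPM in the 3 Control libraries. Its log2 fold change, always given here as knockout minus control, was -0.56 ± 0.09 (SE; edgeR adjusted p = 0.00338; exact two-sided permutation p = 0.0286, the smallest that 35 arrangements allow). Library totals lay between 16097811 and 18871636 counts. Nothing in the labels says that replicates came from separate animals, so p-values measure the spread between these libraries only, which may be technical. The fractions of the deposited values show 2 batches: 5 libraries in the larger and 2, knockout replicate 4 and Control replicate 3, in the smaller. Each gene appears to carry 1 added constant per batch. This leaves count differences within a batch as they were but can alter fold changes, within a batch as well as across batches. Within-batch values are given for each member, but fold changes and p-values of the larger batch alone carry the same limit. Whether the constants narrowed the spread that the p-values use was not tested.

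The start regions of Nrg3 and Erbb2 are shown because they belong to the ligand with the largest fold change of the 8 genes and to the receptor whose fold change was nearest to 0. Each runs from 250 bases before to 50 bases after the RefSeq gene start (GRCm38.p6), and capitals mark CG dinucleotides, the sites of DNA methylation.
Nrg3, chr14:39473039-39473338, reverse strand: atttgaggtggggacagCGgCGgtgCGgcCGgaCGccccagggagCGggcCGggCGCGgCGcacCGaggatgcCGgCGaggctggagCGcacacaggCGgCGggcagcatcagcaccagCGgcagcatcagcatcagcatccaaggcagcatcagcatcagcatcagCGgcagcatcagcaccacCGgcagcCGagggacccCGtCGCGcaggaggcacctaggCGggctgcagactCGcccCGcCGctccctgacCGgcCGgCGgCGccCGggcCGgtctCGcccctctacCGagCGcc
Erbb2, chr11:98412234-98412533, forward strand: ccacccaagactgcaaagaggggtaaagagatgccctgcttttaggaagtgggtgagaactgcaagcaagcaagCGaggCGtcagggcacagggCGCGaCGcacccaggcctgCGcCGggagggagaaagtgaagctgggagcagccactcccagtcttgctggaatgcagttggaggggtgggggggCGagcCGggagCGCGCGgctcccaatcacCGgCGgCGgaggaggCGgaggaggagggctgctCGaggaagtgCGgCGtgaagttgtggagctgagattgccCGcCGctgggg
The Nrg3 window held 36 CG dinucleotides and the Erbb2 window 21, against a median of 7 over 32851 windows of the same length. Of these windows 6.23% held as many as Nrg3 or more, and 24.8% as many as Erbb2 or more. The windows given for Erbb4, Egfr and Nrg4 held 17, 15 and 13. The Nrg4 window (chr9:55283576-55283875) lies inside the counted gene and not at its start, which is at 55326844 on the reverse strand. The Nrg3 window also carried 8 copies of CAGCAT on the printed strand, a number reached by 3 of the windows, its own included, while 16.4% of windows had this motif at least once on either strand. The E-box letters CANNTG, which read the same on both strands, were not in the Nrg3 window and were in the Erbb2 window, as in 72.3% of all windows. These letters describe the sequence and do not show that any factor binds it.

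Of the 8 genes, 2 fell in the Brg1 knockout libraries, both of them neuregulins: Nrg3, a neuronal ligand of ErbB4, to 21.8% of its Control mean and Nrg1, the ligand that Schwann cells depend on, to 58.9%. No receptor passed the test, although Erbb3 was lower in every knockout library. The count was 2 of 8 lower and 0 of 8 higher (edgeR quasi-likelihood test, Benjamini-Hochberg adjusted p below 0.05), beside 4.87% of all 17341 tested genes lower and 1.94% higher. An unadjusted p below 0.05 by edgeR was met by 3 members on the lower and 0 on the higher side, beside 3673 of the 17341 tested genes in both directions together. DESeq2 called the same numbers of members, 3 lower and 0 higher, beside its background of 6.67% lower and 2.98% higher. In the larger batch alone edgeR called 2 members lower and 0 higher, beside 2.49% of genes lower and 1.25% higher. The knockout and Control libraries did not overlap, on the lower side, in 4 members, Nrg1, Nrg3, Nrg4 and Erbb3, and on the higher side in none, beside 11.5% of tested genes on the lower side and 9.27% on the higher side. The median log2 fold change was -0.62 over the 4 neuregulins and 0.06 over the 4 receptors, and it was 0.02 over all tested genes.

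**Figure D1:**
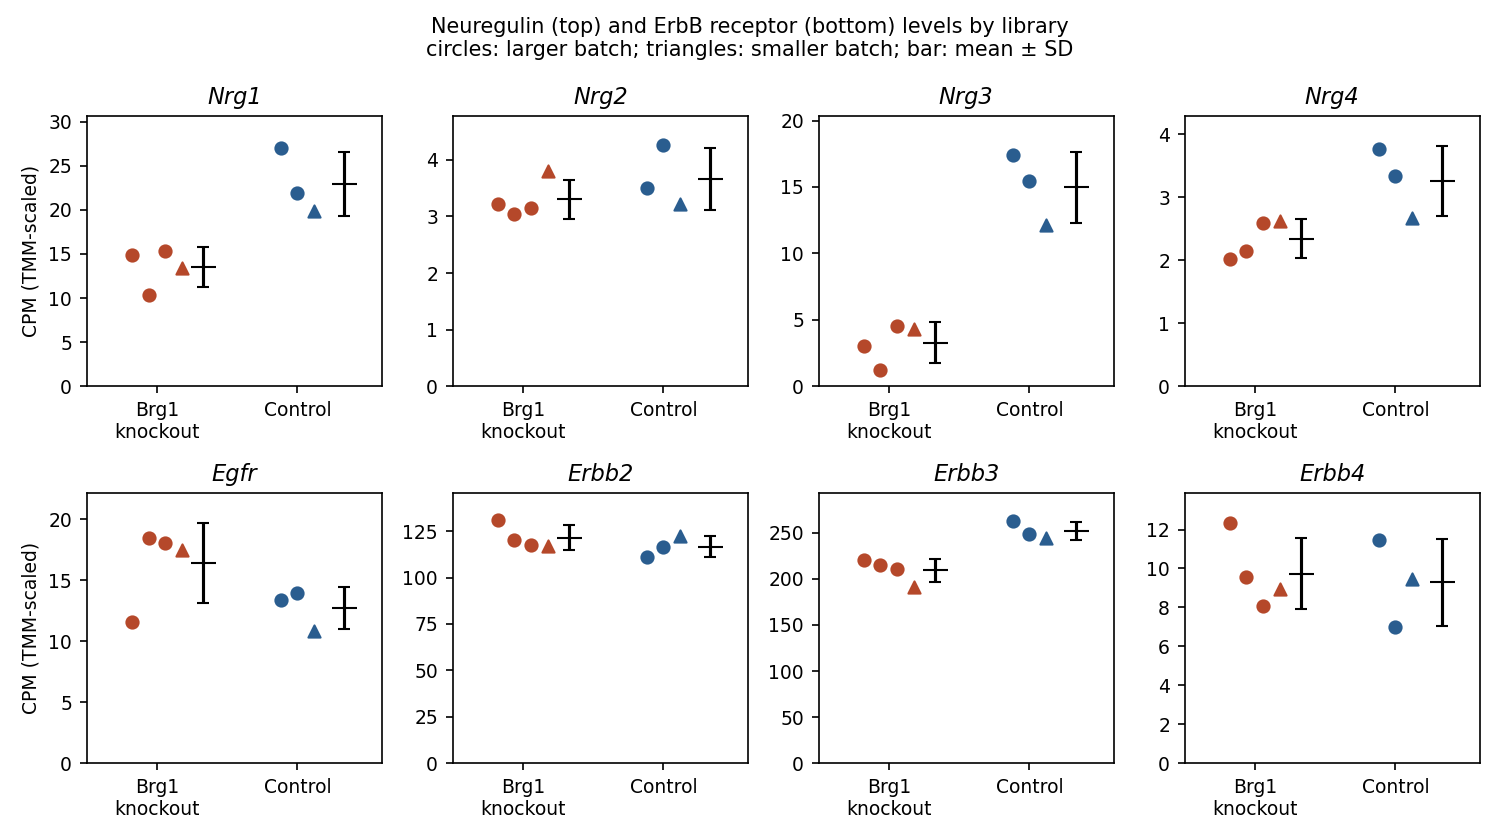
TMM-scaled level (CPM) of each neuregulin (top) and receptor (bottom), with 1 point per library, Brg1 knockout (n = 4) left of Control (n = 3), and mean ± SD beside the points. Circles are libraries of the larger batch and triangles those of the smaller. Nrg3 lies between 1.18 and 4.50 CPM in the knockout libraries and between 12.1 and 17.4 CPM in the controls, while the groups of Erbb2 and Erbb4 overlap.

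Nrg3 (ENSMUSG00000041014, chromosome 14, 38368952 to 39473088, mm10, reverse strand) was at 3.06, 1.18, 4.50 and 4.34 CPM in the knockout libraries (replicates 1 to 4), against 17.4, 15.4 and 12.1 CPM in the Control libraries (replicates 1 to 3). Every knockout library was below every Control library, and knockout replicate 2 was the lowest of all. The 4 knockout libraries averaged 3.27 ± 1.54 CPM (SD) and the 3 Control libraries 15.0 ± 2.67 CPM. On the log2 scale the difference was -2.20 ± 0.35 (SE), with a 95% interval of -2.99 to -1.42 (edgeR adjusted p = 0.00556), which is 4.61-fold lower in knockout. The call held in all 14 other settings, with log2 fold changes between -2.51 and -1.92 and adjusted p up to 0.0347. Within the larger batch Nrg3 had 56, 22 and 73 counts in knockout, against 333 and 278 counts in Control, and within the smaller batch it had 73 counts in knockout, against 222 counts in Control. The gap therefore lay on the same side in both batches, and in the larger batch alone the log2 fold change was -2.51 ± 0.43 (edgeR adjusted p = 0.0271). The 3 annotated antisense genes that overlap Nrg3 averaged below 1 count per library.

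Nrg1 (ENSMUSG00000062991, chromosome 8, 31814551 to 32884029, reverse strand) is the best studied ligand of the family and is made in several isoforms from separate promoters, which a count per gene cannot tell apart. Nrg1 measured 14.9, 10.4, 15.4 and 13.4 CPM in the knockout libraries (replicates 1 to 4), against 27.0, 22.0 and 19.9 CPM in the Control libraries (replicates 1 to 3). The groups did not overlap, and the highest knockout library, replicate 3, was still below the lowest Control library, also its replicate 3. This made a log2 fold change of -0.77 ± 0.16 (SE), the 95% interval being -1.11 to -0.42 (edgeR adjusted p = 0.0139). The larger batch alone gave -0.86 ± 0.19 (edgeR adjusted p = 0.0435), and in the smaller batch Nrg1 had 226 counts in knockout, against 364 counts in Control. Without Control replicate 1, the highest library, the log2 fold change was -0.64 and the adjusted p 0.0718 by edgeR, so that the call was lost; it held in the other 13 settings. The lincRNA Gm26578, on the opposite strand within Nrg1, was at 0.12 ± 0.22 (edgeR adjusted p = 0.808), and the sources used here do not give whether counting used strand.

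Nrg2 and Nrg4 did not pass the test. Nrg2 (ENSMUSG00000060275), a ligand of ErbB3 and ErbB4, was at 3.22, 3.05, 3.14 and 3.802 CPM in the knockout libraries (replicates 1 to 4), against 3.50, 4.27 and 3.22 CPM in the Control libraries (replicates 1 to 3). These ranges overlapped, and the 95% interval of the log2 fold change ran from -0.60 to 0.31 (edgeR adjusted p = 0.743). The batches differed in direction for Nrg2: the larger alone gave -0.31 ± 0.25 (edgeR adjusted p = 0.614), while the smaller had 64 counts in knockout, against 59 counts in Control. Nrg4 (ENSMUSG00000032311, chromosome 9, 55220222 to 55326844, reverse strand), a ligand of ErbB4 known mainly from fat tissue, was at 2.02, 2.14, 2.59 and 2.61 CPM in knockout, against 3.76, 3.33 and 2.67 CPM in Control. The groups did not overlap, but knockout replicate 4 and Control replicate 3, the libraries of the smaller batch, were nearly level, at 44 and 49 counts. The log2 fold change of Nrg4 was -0.48 ± 0.23 (edgeR adjusted p = 0.265), and -0.66 ± 0.28 in the larger batch alone (0.270). Fbxo22, which overlaps Nrg4 on the opposite strand, was at 44.0 to 52.3 CPM in knockout and 48.4 to 50.2 CPM in Control, far above Nrg4, and reads from any exonic bases that both genes share could not be assigned if strand was not used; the extent of such bases was not measured.

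Among the receptors Erbb3 came nearest to the threshold. Erbb3 (ENSMUSG00000018166, chromosome 10, 128567523 to 128589652, reverse strand), the neuregulin receptor of Schwann cells and their precursors, was at 220, 215, 211 and 191 CPM in the knockout libraries (replicates 1 to 4), against 263, 249 and 245 CPM in the Control libraries (replicates 1 to 3). All 4 knockout libraries were below all 3 controls, and knockout replicate 4 was the lowest. The difference amounted to -0.27 ± 0.08 on the log2 scale (SE), with a 95% interval of -0.44 to -0.10 (edgeR adjusted p = 0.0655), which is 83.0% of the Control mean. DESeq2 put it past the threshold, at -0.28 with an adjusted p of 0.0181, and the other 13 settings did not. In the larger batch alone it was -0.25 ± 0.08 (edgeR adjusted p = 0.161), and in the smaller batch Erbb3 had 3215 counts in knockout, against 4486 counts in Control.

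Erbb2 (ENSMUSG00000062312, chromosome 11, 98412470 to 98437716, forward strand), the shared partner receptor, was at 131, 120, 117 and 117 CPM in the knockout libraries (replicates 1 to 4), against 111, 116 and 123 CPM in the Control libraries (replicates 1 to 3). The groups overlapped, and the 95% interval of the log2 fold change ran from -0.11 to 0.22 (0.06 ± 0.07; edgeR adjusted p = 0.716), so differences beyond 1.17-fold higher or to below 0.930 of Control lay outside it. The batches went opposite ways, with 0.11 ± 0.09 in the larger alone (edgeR adjusted p = 0.580) and, in the smaller, 1972 counts in knockout, against 2246 counts in Control. Erbb4 (ENSMUSG00000062209, chromosome 1, 68032186 to 69108059, reverse strand), the receptor that binds all 4 neuregulins, was at 12.3, 9.57, 8.08 and 8.97 CPM in knockout, against 11.4, 6.99 and 9.44 CPM in Control. Its libraries were interleaved, with a log2 fold change of 0.07 ± 0.20 (95% interval -0.37 to 0.51; edgeR adjusted p = 0.891). Without knockout replicate 1 the estimate was -0.07, and without Control replicate 2 it was -0.12, neither of them called. The larger batch alone gave 0.12 ± 0.27 (edgeR adjusted p = 0.891), and the smaller had 151 counts in knockout, against 173 counts in Control. Egfr (ENSMUSG00000020122, chromosome 11, 16752203 to 16918158, forward strand), the EGF receptor, was at 11.6, 18.5, 18.1 and 17.5 CPM in knockout, against 13.4, 13.98 and 10.8 CPM in Control. In 3 of 4 knockout libraries Egfr was above all controls, and knockout replicate 1 lay inside the Control range. Its log2 fold change was 0.37 ± 0.18 (95% interval -0.02 to 0.75; edgeR adjusted p = 0.260), and it was not called in any of the 14 other settings. It ranged from 0.23 ± 0.21 in the larger batch alone (edgeR adjusted p = 0.665) to 0.50 without knockout replicate 1 (0.0570). In the smaller batch Egfr had 295 counts in knockout, against 198 counts in Control.

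**Figure D2:**
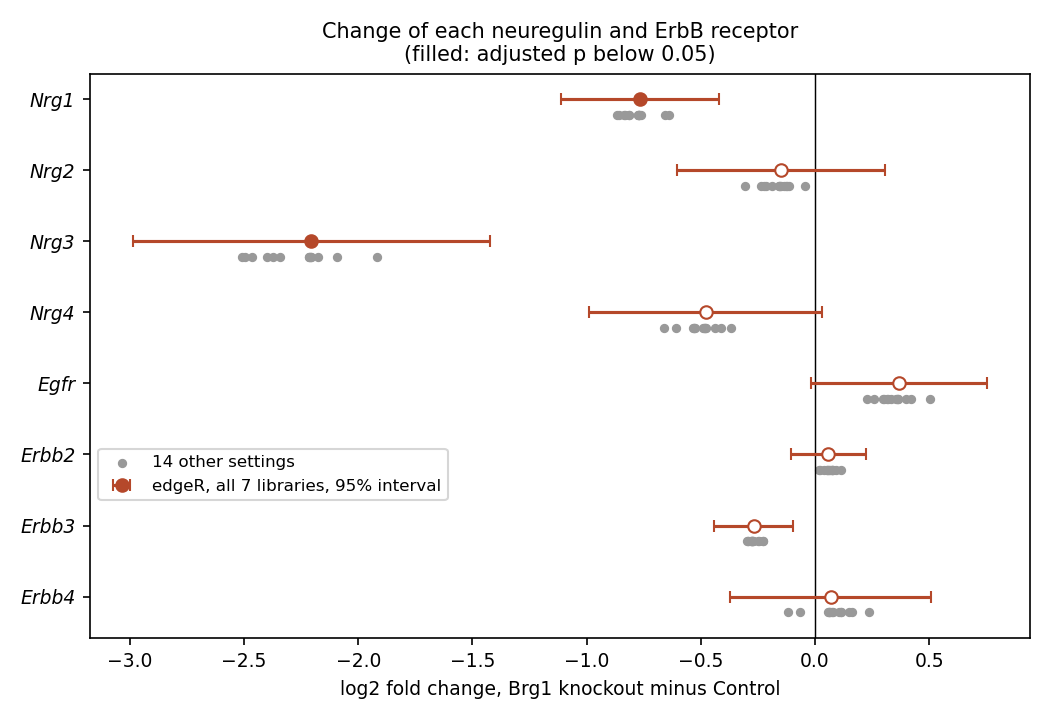
Log2 fold change of each member, Brg1 knockout minus Control, with its 95% interval from edgeR on all 7 libraries; grey points are the 14 other settings, and filled symbols have an adjusted p below 0.05. The estimates of Nrg3 lie between -2.51 and -1.92 in the other settings, and those of Erbb4 lie on both sides of 0, from -0.12 to 0.24.

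Levels of different genes were compared per length, as FPKM (fragments scaled by gene length and library size) from the deposited table. Erbb3 stood first in both groups, at 33.8 ± 2.53 FPKM over the 4 knockout libraries (SD) and 40.9 ± 2.12 FPKM over the 3 controls. Erbb2 came second, at 22.6 ± 1.48 FPKM in knockout and 21.8 ± 0.764 FPKM in Control, and these receptors overlapped no neighbour in the order. All other members were at or below 2.59 FPKM in every library. In knockout the order was then Egfr, Nrg1, Nrg2, Erbb4, Nrg3 and Nrg4, and each of these overlapped the next one. In Control it was Nrg1 at 2.17 ± 0.380 FPKM, Nrg3 at 2.15 ± 0.413 FPKM, Nrg2, Egfr, Erbb4 and Nrg4, with a gap between Nrg3 and Nrg2 that no library crossed, while each gene from Nrg2 on overlapped the next. Nrg3 thus stood level with Nrg1 in Control, whereas in knockout it was at 0.464 ± 0.215 FPKM, beside 0.373 ± 0.0444 FPKM of Nrg4.

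The 4 neuregulins summed to 2.46 to 3.49 FPKM in the knockout libraries, against 4.98 to 6.86 FPKM in the Control libraries. The 4 receptors summed to 53.7 to 62.7 FPKM in knockout and 63.4 to 66.4 FPKM in Control, so the receptor transcripts outweighed those of the ligands in every library. Nrg3 made up 6.86% to 18.4% of the summed neuregulin FPKM in knockout, against 34.3% to 36.9% in Control. The share of Nrg2, whose own level was not called, was 28.4% to 39.3% in knockout, against 16.4% to 21.9% in Control. The shares of Nrg1 overlapped, at 36.1% to 44.1% in knockout and 33.6% to 37.7% in Control. Among the receptors Erbb3 took 56.2% to 58.6% in knockout, against 61.7% to 65.1% in Control, and Erbb2 took 37.6% to 39.8% in knockout, against 31.8% to 35.7% in Control.

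**Figure D3:**
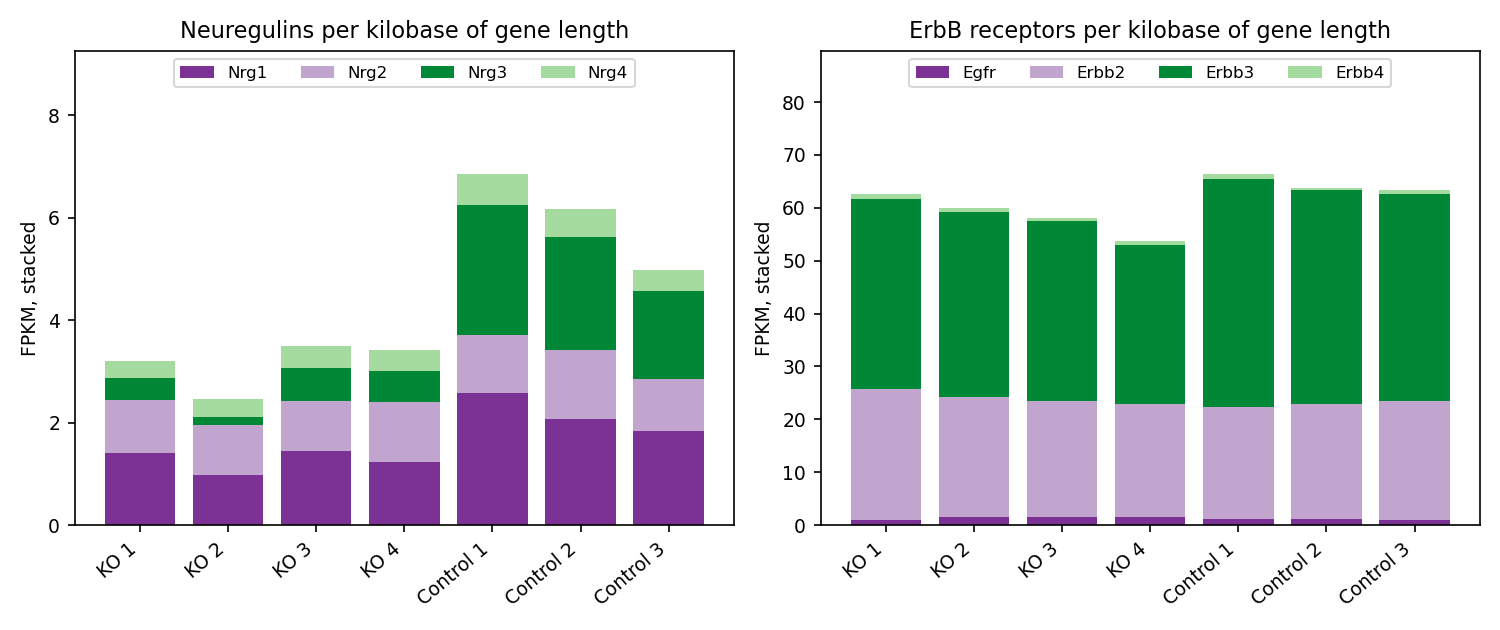
Stacked FPKM of the 4 neuregulins (left) and the 4 ErbB receptors (right) in each library, knockout replicates left of Control replicates. The Nrg3 segment is 0.169 to 0.641 FPKM high in knockout and 1.71 to 2.53 FPKM in Control, while Erbb3 and Erbb2 fill nearly all of every receptor bar.

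To ask whether ligands and receptors shifted relative to each other within the same library, 4 log2 ratios of CPM were compared by exact two-sided permutation tests over all 35 arrangements. CPM is not scaled for gene length, so only the difference of a ratio between groups can be read. The ratio of Nrg3 to Erbb4, the receptor it binds, was -2.01, -3.02, -0.84 and -1.05 in knockout replicates 1 to 4, against 0.60, 1.14 and 0.36 in Control replicates 1 to 3. Every knockout library was below every Control library, with a difference of means of -2.43 (exact permutation p = 0.0286, the smallest possible, and 0.0381 adjusted over the 4 ratios). Nrg3 alone separated the groups in the same way and Erbb4 overlapped, so this ratio is not separate evidence from the Nrg3 call. The ratio of Nrg1 to Erbb3 averaged -3.97 ± 0.27 over the 4 knockout libraries (SD) and -3.47 ± 0.17 over the 3 controls. It was lower in all 4 knockout libraries than in any control (difference -0.50, exact permutation p = 0.0286, adjusted p = 0.0381), as was Nrg1 alone. The ratio of Erbb3 to Erbb2 was 0.75, 0.83, 0.85 and 0.71 in knockout, against 1.24, 1.095 and 0.998 in Control. It was lower in all 4 knockout libraries (difference -0.33, exact permutation p = 0.0286, adjusted p = 0.0381). Erbb3 alone was also lower in all of these libraries than in any control. Neither receptor passed the test by edgeR, but that p is adjusted over 17341 genes, so the tests cannot be set against each other. The ratio of Egfr to Erbb2 overlapped between groups (difference 0.29, exact permutation p = 0.371, adjusted p = 0.371). How often ratios of other genes separate the groups was not tested. Within the larger batch the 4 differences were -2.83, -0.62, -0.36 and 0.09 in the same order, where 3 against 2 libraries cannot reach a p below 0.1.

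Markers of the cell types that make these ligands and receptors differed between the same libraries. Of 20 neuron markers, 13 were lower and 0 higher (edgeR; unadjusted p below 0.05 gave 15 and 0, DESeq2 15 and 0), with a summed level of 1063 to 1447 CPM in knockout, against 2547 to 2855 CPM in Control. Of 12 markers of Schwann and satellite glia, 4 were lower and 0 higher (8 and 0 at an unadjusted p below 0.05, 7 and 0 by DESeq2), summing to 570 to 829.2 CPM in knockout, against 1307 to 1476 CPM in Control. Of 12 epithelial markers, 7 were higher and 0 lower (8 and 0 at an unadjusted p below 0.05, 8 and 0 by DESeq2), at 1576 to 1841 CPM in knockout, against 1259 to 1472 CPM in Control. In the larger batch alone 8 neuron markers and 1 glial marker were lower and 5 epithelial markers higher, beside 2.49% of all tested genes lower and 1.25% higher. With all 7 libraries, the shares to set beside these and the following counts were 4.87% lower and 1.94% higher by edgeR. By DESeq2 they were 6.67% and 2.98%. An unadjusted p below 0.05 by edgeR was met by 3673 of the 17341 tested genes, both directions together. Every marker of these 3 lists had at least 3 counts in some library. Hair cell markers (2 of 7 higher, 0 lower) summed to 281 to 306 CPM in knockout and 242 to 264 CPM in Control, supporting cell markers (2 of 6 lower, 0 higher) to 247 to 277 CPM in knockout and 288 to 311 CPM in Control, and macrophage markers (2 of 6 higher, 0 lower) to 92.5 to 118 CPM in knockout and 66.1 to 89.4 CPM in Control. The supporting cell markers were mixed. Of these 6, 3 had a log2 fold change above 0 and 3 below, and their mean log2 levels overlapped between the groups. Of 9 periotic mesenchyme markers, 3 were higher and 0 lower by edgeR (3 and 1 by DESeq2), and none was called in the larger batch alone. Their sums overlapped between the groups. The sums of endothelium, melanocyte and skeletal muscle markers overlapped too, and edgeR called none of these markers. In bulk RNA, fewer cells of a type and less RNA per cell cannot be told apart, and the part of cell makeup in the fall of Nrg1 and Nrg3 and in the level of Erbb3 was not tested.

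The called ligands were also set against the neuron list of the same library. The log2(CPM + 0.5) of Nrg3 minus the mean of the neuron list was -3.25, -4.01, -2.98 and -2.44 in knockout replicates 1 to 4, against -2.04, -2.01 and -2.53 in Control replicates 1 to 3. The mean was 0.97 lower in knockout, but knockout replicate 4 lay within the Control range. For Nrg1 the same quantity was -1.14, -1.31, -1.31 and -0.91 in knockout, against -1.42, -1.51 and -1.84 in Control. Nrg1 thus stood higher relative to the neuron list in all 4 knockout libraries, by 0.42 in the mean. Nrg2, Nrg4, Egfr, Erbb2, Erbb3 and Erbb4 did so too, each by more than Nrg1 (1.04 for Nrg2 and 1.23 for Erbb2). The shift is therefore not particular to Nrg1. The neuron markers themselves changed unequally. Their log2 fold changes ran from -2.03 for Nefm and -1.90 for Nefl to -0.04 for Syt1 and 0.00 for Scg2. All comparisons with the neuron list therefore depend on which markers are in it. Erbb3 minus the mean of the Schwann and satellite glia list was 3.13, 3.88, 3.03 and 2.996 in knockout, against 2.71, 2.80 and 2.76 in Control. Erbb3 thus stood higher relative to the glial list in every knockout library, by 0.50 in the mean. The other receptors did so by more, Egfr by 1.11, Erbb4 by 0.85 and Erbb2 by 0.83. Relative to the epithelial list Erbb3 was lower, at 0.74 to 1.08 in knockout, against 1.48 to 1.78 in Control. All 4 neuregulins and Erbb2 were lower there too, while Egfr and Erbb4 overlapped, so neither shift is particular to Erbb3. These differences are descriptions and carry no test.

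**Figure D4:**
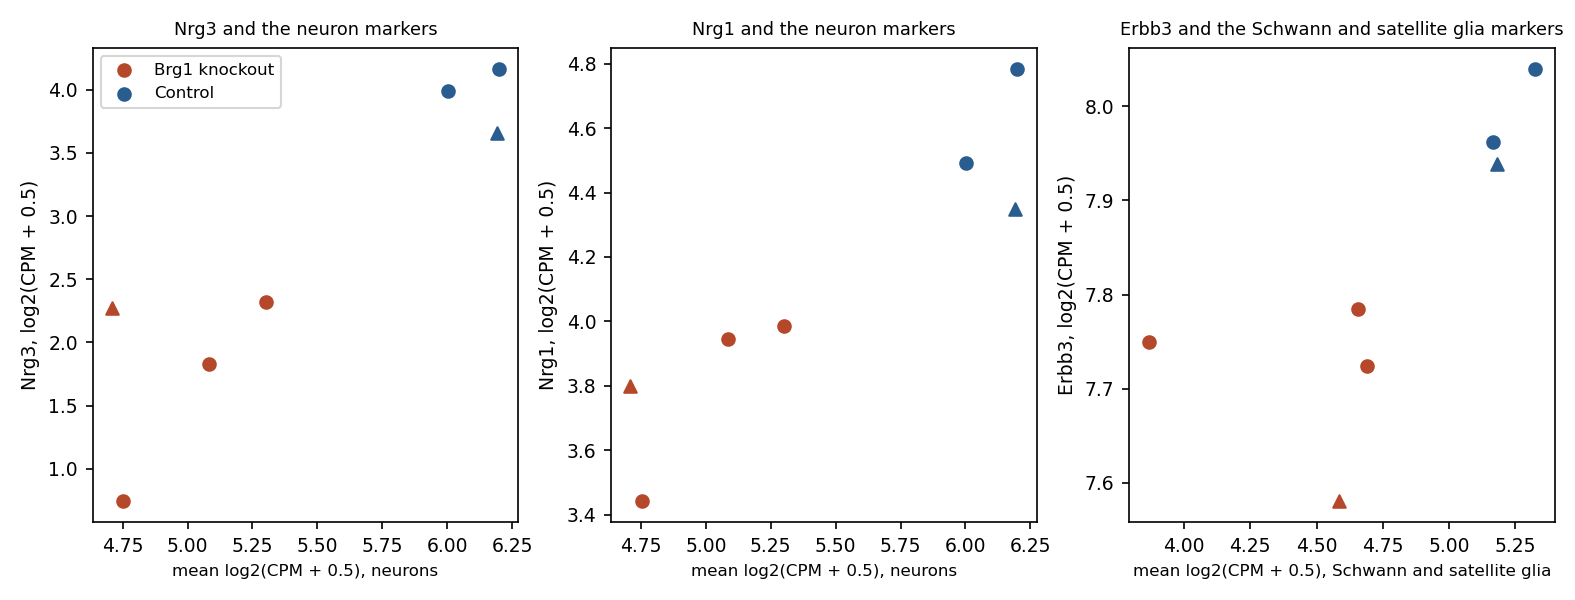
Log2(CPM + 0.5) of Nrg3 and Nrg1 against the mean of the neuron markers, and of Erbb3 against the mean of the Schwann and satellite glia markers, with 1 point per library (triangles: smaller batch). The neuron mean is 4.71 to 5.30 in knockout and 6.003 to 6.20 in Control, and knockout replicate 2 has the lowest Nrg3, the lowest Nrg1 and the lowest glial mean, 3.87.

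The other ligands of the EGF family act mainly through EGFR. Of 7, 4 were expressed enough to test, and 1 rose, beside 1.94% of all tested genes higher and 4.87% lower. It was Egf itself, with 62.1, 55.1, 52.0 and 48.7 CPM in the knockout libraries (replicates 1 to 4), against 22.8, 34.3 and 34.8 CPM in the Control libraries (replicates 1 to 3). All knockout libraries were above all controls, with a log2 fold change of 0.83 ± 0.15 (edgeR adjusted p = 0.00718; 0.0212 in the larger batch alone). The call was lost in 1 of the 14 other settings, the replicate block by description numbers (0.0559). Tgfa (-0.18 ± 0.18) and Btc (0.44 ± 0.55) did not pass, and Areg and Ereg had under 3 counts in every library. The median over the 4 tested was 0.24, and it rests on single libraries: it was 0.0043 without knockout replicate 1, 0.063 without Control replicate 1 and 0.42 without Control replicate 2.

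Neuregulins and EGF-like precursors are released by membrane proteases, and none of 8 genes of this group passed the test (0 called by edgeR and 0 by DESeq2; unadjusted p below 0.05 in 1 on the higher side and 2 on the lower; median -0.04). The smallest p were those of the sheddase Adam17 (0.18 ± 0.07) and the convertase Furin (-0.28 ± 0.12). The median was 0.00 over 8 genes that restrain ErbB receptors or govern their turnover. On the lower side 0 of them passed at an unadjusted p below 0.05 and 0 by DESeq2. By edgeR 1 rose and 0 fell, beside 1.94% of all tested genes higher and 4.87% lower. It was Lrig3, of a family of membrane proteins known to modulate ErbB receptors, at 49.4 ± 5.65 CPM over the knockout libraries (SD) and 37.5 ± 3.12 CPM over the controls, with a log2 fold change of 0.39 ± 0.11 (edgeR adjusted p = 0.0484). That call was lost in 5 of 7 fits that left out 1 library, namely without knockout replicate 2 or 3 or any of the Control replicates, with adjusted p up to 0.215, in the larger batch alone (0.0969), with batch as a covariate (0.0809) and with edgeR's RLE size factors (0.0529). Lrig2 (-0.17 ± 0.09) and Erbin (0.12 ± 0.08) had the next smallest p.

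Among 23 adaptors and effectors that carry the signal from the receptors, 1 rose and 2 fell (median 0.01), beside 1.94% of all tested genes higher and 4.87% lower. DESeq2 called 2 of them in each direction, and 4 in each direction had an unadjusted p below 0.05. Grb7, an adaptor whose gene lies close to Erbb2, was at 39.9, 40.4, 36.7 and 38.2 CPM in the knockout libraries (replicates 1 to 4), against 25.6, 26.4 and 29.9 CPM in the Control libraries (replicates 1 to 3) (0.51 ± 0.09; edgeR adjusted p = 0.00701). Erbb2 itself did not pass, as given above. Shc2, an adaptor of the Shc family known best from neurons, fell to 65.9, 46.0, 57.5 and 56.1 CPM in knockout, against 94.3, 105 and 89.5 CPM in Control (-0.77 ± 0.11; edgeR adjusted p = 0.00228). Both calls held in the larger batch, with an adjusted p of 0.0214 for Grb7 and 0.0183 for Shc2, and without any single library. The lncRNA Gm47163, on the opposite strand over Shc2, did not pass (0.08; edgeR adjusted p = 0.814). The docking protein gene Gab2 fell to 20.3 ± 2.53 CPM in knockout, against 32.6 ± 5.06 CPM in Control (-0.68 ± 0.13; edgeR adjusted p = 0.00958), a call lost without Control replicate 1 (0.0538) and in the larger batch (0.0516). Pik3cb (0.40 ± 0.11; edgeR adjusted p = 0.0535) and Src (-0.27 ± 0.09) came next. The neuron markers given above were lower in the libraries where Shc2 and Gab2 fell, and the epithelial markers higher where Egf and Grb7 rose, and their part in these results was not tested.

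Of 10 Schwann lineage genes known to act downstream of ErbB signalling or in the same cells, 2 fell and 0 rose (5 lower and 0 higher at unadjusted p below 0.05, 4 and 0 by DESeq2), with a median of -0.32. Of all tested genes 4.87% were lower and 1.94% higher by edgeR, and 6.67% and 2.98% by DESeq2. Of the 10 lineage genes 7 also belong to the Schwann and satellite glia markers above, so the counts are not separate evidence. Egr2, a transcription factor of myelinating Schwann cells, was at 2.54 ± 0.953 CPM over the knockout libraries (SD) and 5.28 ± 1.05 CPM over the controls, with a log2 fold change of -1.05 ± 0.28 (edgeR adjusted p = 0.0457). Mbp, a myelin protein gene, was at 32.5 ± 5.18 CPM in knockout and 47.2 ± 7.25 CPM in Control (-0.54 ± 0.14; edgeR adjusted p = 0.0410), and the pseudogene Rpl21-ps8 overlaps it on the opposite strand. Both calls were lost in the larger batch alone, at an adjusted p of 0.183 for Egr2 and 0.196 for Mbp, and with batch as a covariate, at 0.0748 and 0.0724 in that order. Egr2 remained called only without knockout replicate 1 among the 7 fits that left out 1 library, with adjusted p up to 0.151, and Mbp only without knockout replicate 1 or Control replicate 1, with adjusted p up to 0.132. Pmp22 (-0.34 ± 0.11) and Fabp7 (-1.44 ± 0.40; edgeR adjusted p = 0.107) did not pass. Fabp7 was at 51.7 to 176 CPM in knockout, against 326 to 344 CPM in Control.

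**Figure D5:**
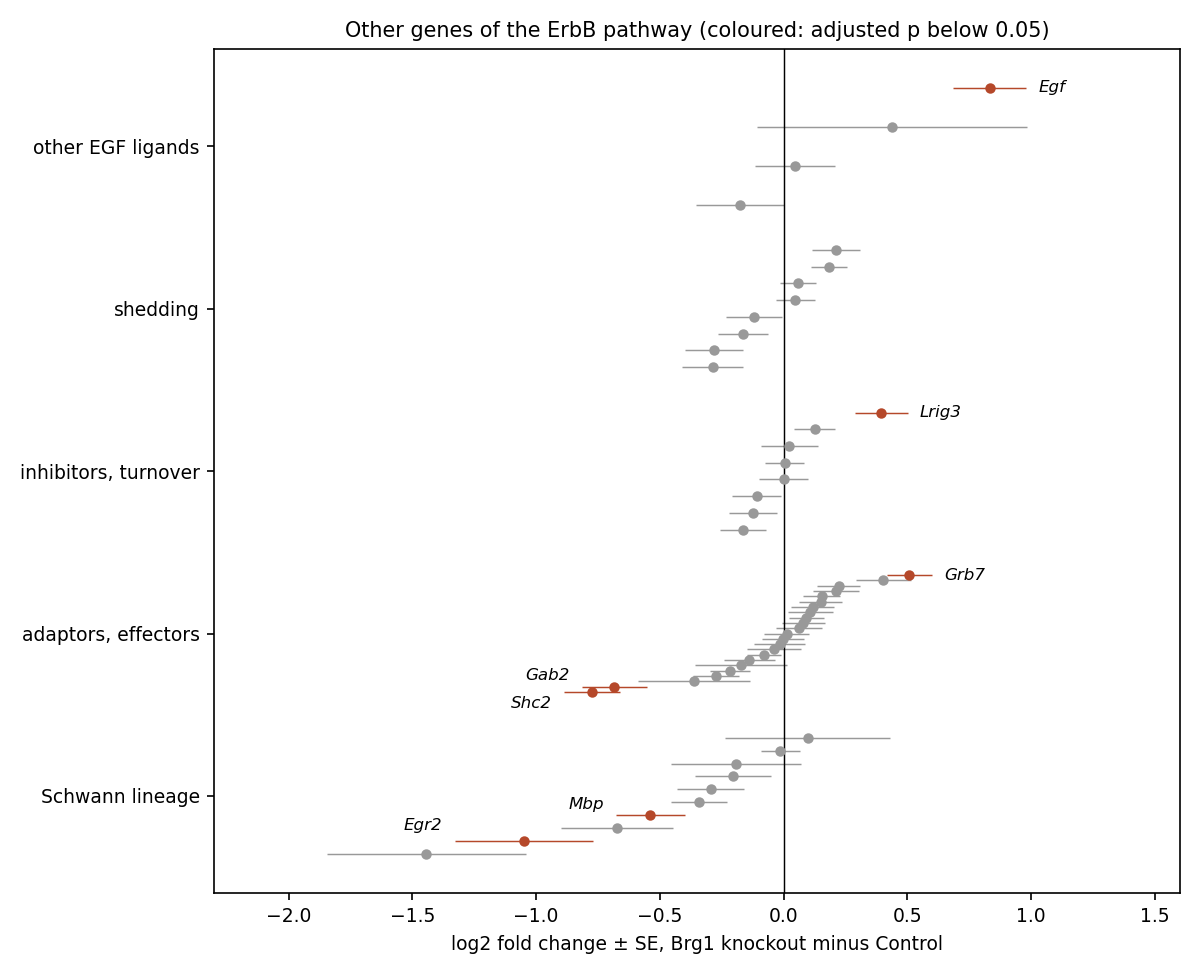
Log2 fold change ± SE, Brg1 knockout minus Control, of every tested gene of the 5 pathway lists, with the 7 genes past the edgeR threshold coloured and named. Egf, Lrig3 and Grb7 lie above 0 and Shc2, Gab2, Egr2 and Mbp below.

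The genes whose profile over the 7 libraries was closest to that of each of 4 members were found by Euclidean distance between log2(CPM + 0.5) profiles, each centred on its own mean, among 13864 protein-coding genes with a mean of 1 CPM or more. Closest to Nrg3 were Adarb2 (distance 0.24), Chl1 (0.41), Ednrb (0.47), Myt1l (0.58) and Rims3 (0.65). All of these were lower in knockout, by log2 fold changes between -2.26 and -1.89, and Ednrb, also one of the glial markers, was the one not called (edgeR adjusted p = 0.0716). Genes chosen for closeness to a member's profile share its gap between the groups, so their fold changes are not separate evidence. Closest to Nrg1 were Fhod3 (distance 0.10), Pde4dip (0.25), Stard13 (0.25), Srrm4 (0.25) and Snph (0.28). Erbb3 was nearest to Arhgap23, Pip4k2b, Efnb2, Csnk1g3 and Tmx4, at distances from 0.068 to 0.094, and none of these was called. Erbb4 was nearest to Pdp2, Dnah7c, Fut10, Nlgn1 and Emilin2, at distances from 0.21 to 0.24. With only the larger batch, an alternative chosen after seeing the data, 1 of the 5 genes nearest to Nrg1, 0 of those nearest to Erbb3 and 2 of those nearest to Erbb4 stayed in the list, so these neighbours depend on the libraries used. For Nrg3, 4 of 5 stayed.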

How the data were processed

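The labels describe total RNA of 7 libraries, extracted with the RNeasy Micro kit and prepared with NEBNext Ultra RNA. Per the submitters' processing notes, the tools were HISAT2 2.0.5 and fastp, DESeq2 1.20.0, featureCounts 1.5.0-p3 and CASAVA 1.8, with the build mm10; the sources used here do not give their roles, settings or any use of strand. The deposited count table holds estimated counts rather than raw ones. All values of the 21368 genes that exceeded 0 throughout were multiples of 1 / 12 (tolerance 0.001), and among 17795 informative genes the fractions split the libraries into batches of 5 and 2. No label records this step. Values were rounded before every test, although the design had assumed raw counts. The deposited FPKM values, times gene length, equalled the rounded counts in 99.992141% of values (tolerance 0.01), so they carry the same adjustment. The library titled Control 3 carries the number 4 in its description.

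Counts were tested across the whole table with edgeR 4.0.16 (R 4.3.3; TMM, filterByExpr, robust quasi-likelihood fit, Benjamini-Hochberg adjustment, threshold 0.05). The filter left 17341 genes, with a biological coefficient of variation of 14.9% and 5 residual degrees of freedom. Between 16895 and 17214 genes had 10 or more counts per library. A floor of 3 counts corresponded to 0.159 to 0.186 CPM and covers counting error only. Log levels used a pseudocount of 0.5 CPM. Ratios and Smarca4 were tested by exact permutation. The fit was tested on simulated data. DESeq2 1.42.0, RLE size factors, no low-count filter, a replicate block, a batch covariate, the larger batch alone and leaving out each library were the alternatives.

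The genes named are all 8 members, Smarca4, each called gene of the 5 pathway lists with the 2 uncalled genes of smallest p in each list, and the 5 nearest profiles of Nrg3, Nrg1, Erbb3 and Erbb4. The members and lists were chosen with earlier results of these data known. RefSeq start regions (GRCm38.p6) were matched by symbol for 5 of the 8 members.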

Additional observations from a re-analysis of the deposited data

Results flagged for a closer look

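In 4 of 28 measures checked, 1 of the 4 knockout libraries lay farther from the others than Dixon's 95% criterion for 4 samples allows, where chance marks about 1 group in 20. Egfr was at 11.6 CPM in knockout replicate 1, against 17.5 to 18.5 CPM in the other knockout libraries. The log2 ratio of Egfr to Erbb2 was -3.50 in the same library and -2.74 to -2.70 in the others. The mean log2(CPM + 0.5) of the Schwann and satellite glia markers was 3.87 in knockout replicate 2, and 4.59 to 4.69 in the others. The mean of the epithelial markers was 6.65 in knockout replicate 3, and 6.83 to 6.85 in the others.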

How the results depend on the processing

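Over 14 alternatives, Nrg3 and Smarca4 kept their calls, and Nrg2, Nrg4, Egfr and Erbb2 stayed uncalled with the same sign. Leaving out 1 library at a time gave Nrg1 log2 fold changes from -0.87 to -0.64, the call being lost at -0.64 without Control replicate 1, and 1 to 2 members called lower. DESeq2 called Erbb3 at -0.28. Erbb4 reversed without knockout replicate 1 (-0.07) and without Control replicate 2 (-0.12), in a range from -0.12 to 0.24. The cause of these shifts was not tested. Leaving out 1 library, no ratio test could reach a p of 0.05, and the differences of the ratios of Nrg3 to Erbb4 (-2.73 to -2.004), Nrg1 to Erbb3 (-0.58 to -0.36) and Erbb3 to Erbb2 (-0.39 to -0.26) kept their sign.

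Of all tested genes, 337 were called higher, against 518 by DESeq2, 219 in the larger batch alone, 207 with batch as a covariate and 106 to 348 without 1 library. Of all tested genes, 845 were called lower, against 438 in the larger batch alone and 450 to 847 without 1 library. Of the pathway genes, 3 were called higher, or 2 to 4 without 1 library; 4 were called lower, against 1 in the larger batch, 2 with the batch covariate and 2 to 5 without 1 library. Fewer libraries enter the fits that leave some out.

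In their deviations from the group means, same-numbered libraries correlated at -0.11 to -0.01 by title numbers and -0.49 to -0.06 by description numbers. The value of -0.49 came from knockout replicate 4 and Control replicate 3, the libraries of the smaller batch. Means of so few libraries and the constants per batch both affect these correlations, so they cannot decide whether samples were paired. A replicate block by title numbers called 179 genes higher, and a block by description numbers called 74 higher and 545 lower, with 1 pathway gene higher (Grb7, the calls of Egf and Lrig3 being lost). With the block by title numbers, 2 members were lower and 0 higher. No label pairs libraries, and the batches rest on the deposited fractions alone. Depth limits Nrg2, Nrg3 and Nrg4 most, which had 22 to 73 counts in the knockout libraries.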
